A study of Mus musculus with 6 samples.

Results

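The 9 genes described here encode Eph receptors of the mouse: Epha3, Epha4, Epha5, Epha6 and Epha7 of the A class, and Ephb1, Ephb2, Ephb3 and Ephb6 of the B class. They were taken by symbol from 26264 gene symbols in the count files, and all 9 were found and passed the filter on low counts. The rule is a list of names and uses no measured value, but the family was chosen with earlier results of these data known. They were measured in dissected basolateral amygdala, a group of nuclei in the temporal lobe needed for learned fear. The tissue came from male mice under chronic restraint stress (CRS, 3 biological replicates), a procedure of repeated confinement, and from male mice left unstressed (Ctrl, 3 biological replicates). Libraries of total RNA were made with a stranded kit that removes ribosomal RNA. The sources used here do not give strain, age, length of the stress or whether animals were pooled.

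Eph receptors are tyrosine kinases of the cell surface that bind ephrins on neighbouring cells. Ephrin-A ligands are held to the membrane by a lipid anchor and ephrin-B ligands span it, so contact can signal forward into the cell with the receptor and in reverse into the cell with the ephrin. In the nervous system the pathway guides growing axons, and in the mature forebrain it acts on dendritic spines, excitatory synapses and contacts between neurons and astrocytes. A-class receptors mainly bind ephrin-A and B-class receptors mainly ephrin-B, while Epha4 binds ligands of both classes.

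The libraries held 9859449 to 10179081 counts in genes under CRS and 9870139 to 10233706 in Ctrl. Counts of single receptors ranged from 105 to 3394 per library. Levels are in CPM, counts divided by a library size that TMM normalization adjusts so that the bulk of genes are equal between libraries. Markers of glutamatergic amygdala neurons, such as Slc17a7 and Neurod6, were present in every library, at a summed level of 2316 to 2668 CPM over 8 genes under CRS and 1819 to 2657 CPM in Ctrl. The summed level of 13 striatal and central amygdala markers was 163 to 768 CPM under CRS and 734 to 1399 CPM in Ctrl, with Isl1 at 0 in some library. That of 9 choroid plexus and ependymal markers was 15.9 to 5993 CPM under CRS and 44.8 to 4160 CPM in Ctrl. That of 9 oligodendrocyte markers, all 9 with a log2 fold change below 0 (median -0.41), was 1245 to 1860 CPM under CRS and 1675 to 2666 CPM in Ctrl. That of 7 meningeal fibroblast markers, 6 of them below 0 (median -0.72) and 4 at an unadjusted p under 0.05 (edgeR, beside 3.29% of all tested genes), was 35.4 to 113 CPM under CRS and 42.9 to 69.8 CPM in Ctrl. Dcn, the 1 above 0, was at 95.4 CPM in CRS 1, most of the sum in that library. Astrocyte, microglial and endothelial marker sums differed less, at 5155 to 5975, 363 to 372 and 154 to 168 CPM under CRS, and 5507 to 6073, 351 to 397 and 158 to 213 CPM in Ctrl. By gene, all 8 glutamatergic markers were above 0 (median 0.12), and all 13 striatal and all 9 choroid plexus markers below 0 (medians -0.99 and -0.43). Below 0 were also 7 of 8 astrocyte (median -0.15), 6 of 7 endothelial (-0.23), 4 of 7 microglial (-0.0018) and 5 of 7 GABAergic interneuron markers (-0.18). At an unadjusted p under 0.05 (edgeR) were 2 oligodendrocyte, 2 astrocyte and 1 striatal marker, beside 3.29% of all tested genes. The part of these markers in the differences between groups was not tested beyond the fits with a marker level as covariate. In bulk tissue fewer cells of a type and less RNA per cell cannot be told apart.

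The receptors fell into tiers of abundance. Levels between genes are compared per kb of annotated exon, with exon lengths from GENCODE M21. The sources used here do not give the annotation behind the deposited counts, so these levels are approximate. Epha4, which acts in spine retraction and axon guidance, averaged 42.7 ± 2.18 CPM per kb under CRS and 51.02 ± 3.62 CPM per kb in Ctrl (SD, n = 3 each). Epha6, an A-class receptor of forebrain neurons, averaged 45.7 ± 5.57 CPM per kb under CRS and 37.2 ± 6.06 CPM per kb in Ctrl. With this length the ranges of these leading receptors over the 6 libraries overlapped. Per kb of coding bases they did not, with Epha4 at 86.3 to 117 CPM and Epha6 at 38.0 to 60.2 CPM.

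A middle tier held Epha5, a receptor of axon targeting and synapse formation, Ephb6, whose kinase domain is catalytically inactive, and Epha7, which is known for repelling axons. Epha5 averaged 18.9 ± 2.13 CPM per kb under CRS and 16.7 ± 0.0972 CPM per kb in Ctrl. Ephb6 averaged 16.0 ± 5.40 CPM per kb under CRS and 18.4 ± 7.66 CPM per kb in Ctrl. Epha7 averaged 17.2 ± 2.87 CPM per kb under CRS and 15.4 ± 1.57 CPM per kb in Ctrl. The ranges of these 3 receptors overlapped one another, and none overlapped the range of Epha4 or Epha6, with Ephb6 reaching at most 27.2 CPM per kb and Epha6 falling to 32.8 CPM per kb at its lowest. Both the overlap among these 3 and the gap to Epha6 depend on the length used. Per kb of coding bases, Epha5 spanned 53.4 to 66.6 CPM and Epha7 35.2 to 51.9 CPM, both overlapping Epha6 at 38.0 to 60.2 CPM. Ephb6 spanned 15.7 to 33.7 CPM, and with that length the 3 did not overlap one another.

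The remaining receptors were scarcer. Epha3, a receptor of axon guidance, averaged 5.93 ± 1.22 CPM per kb under CRS and 4.26 ± 0.334 CPM per kb in Ctrl, and Ephb1 averaged 3.48 ± 0.495 CPM per kb under CRS and 4.27 ± 0.802 CPM per kb in Ctrl. Ephb3 averaged 2.42 ± 0.375 CPM per kb under CRS and 2.08 ± 0.224 CPM per kb in Ctrl. Ephb2, which binds NMDA receptors and promotes spine formation together with Ephb1 and Ephb3, averaged 1.35 ± 0.557 CPM per kb under CRS and 1.48 ± 0.301 CPM per kb in Ctrl. Neighbours in this part of the order overlapped in range, except that Ephb1 stayed above Ephb3. With the longest coding transcript as length, Epha7 and Ephb6 changed places. With coding bases alone, Epha5 moved above Epha6, Epha7 above Ephb6, and Ephb2 above Ephb3.

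**Figure D1:**
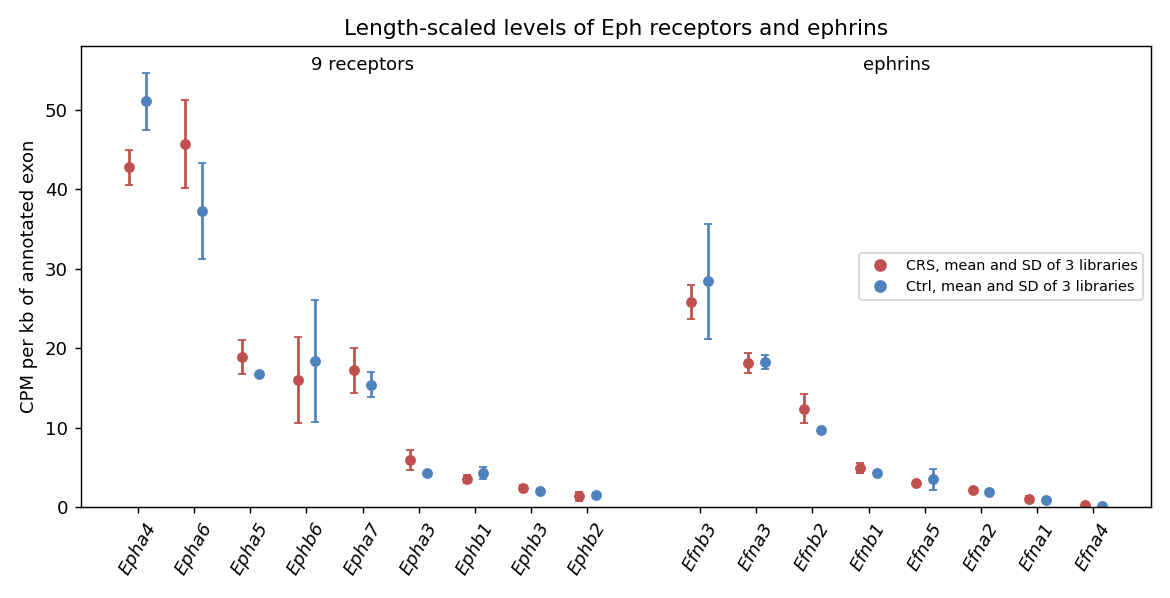
Level of the 9 Eph receptors and 8 ephrins in CPM per kb of annotated exon (vertical axis, linear), with mean and SD of 3 CRS libraries (left point) and 3 Ctrl libraries (right point). With this length Epha4 and Epha6 stand above the other receptors shown, and Ephb2 is the lowest of them at 1.35 CPM per kb under CRS and 1.48 CPM per kb in Ctrl.

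Upstream sequences are shown for 4 receptors that the comparisons below turn on. They are Epha3 and Epha4, whose CRS and Ctrl libraries did not overlap, and Ephb2 and Ephb6, which were highest in the same pair of libraries. Each is the 250 bases before the gene's start on its own strand, from RefSeq on GRCm38.p6, a build other than the mm39 named for the counts. All 9 receptors were matched by symbol. The windows lie at chr16:63864176-63864425 (minus strand), chr1:77515089-77515338 (minus), chr4:136836013-136836262 (minus) and chr6:41605261-41605510 (plus). Capitals mark a GC box bound by Sp1 (GGGCGG or CCGCCC) or a CCAAT box (CCAAT or ATTGG).
Epha3: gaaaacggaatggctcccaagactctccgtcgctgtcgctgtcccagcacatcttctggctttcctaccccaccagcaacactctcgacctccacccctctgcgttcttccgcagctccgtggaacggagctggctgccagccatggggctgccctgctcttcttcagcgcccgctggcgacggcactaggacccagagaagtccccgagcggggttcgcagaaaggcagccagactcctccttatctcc
Epha4: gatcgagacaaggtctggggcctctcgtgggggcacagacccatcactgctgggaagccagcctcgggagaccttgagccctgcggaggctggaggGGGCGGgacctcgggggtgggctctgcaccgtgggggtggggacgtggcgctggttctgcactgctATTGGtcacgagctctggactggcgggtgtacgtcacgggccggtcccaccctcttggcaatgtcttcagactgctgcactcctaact
Ephb2: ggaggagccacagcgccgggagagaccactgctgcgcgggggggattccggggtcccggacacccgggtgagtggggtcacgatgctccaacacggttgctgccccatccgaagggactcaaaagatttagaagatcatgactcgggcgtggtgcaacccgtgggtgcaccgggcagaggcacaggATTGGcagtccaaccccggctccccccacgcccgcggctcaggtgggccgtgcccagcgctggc
Ephb6: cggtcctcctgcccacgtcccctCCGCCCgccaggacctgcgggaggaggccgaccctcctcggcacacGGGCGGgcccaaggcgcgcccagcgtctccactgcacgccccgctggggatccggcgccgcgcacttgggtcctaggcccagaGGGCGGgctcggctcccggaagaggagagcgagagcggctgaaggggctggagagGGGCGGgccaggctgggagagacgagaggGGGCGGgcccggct
The Ephb6 window held 5 GC boxes and 76.8% G and C. The Epha4 window held 1 GC box and 1 CCAAT box with 66% G and C. The Ephb2 window held 1 CCAAT box, and the Epha3 window held neither. In none of these windows did matches overlap. Over all 9 receptors, 6 had a GC box and 5 a CCAAT box in at least 1 window, against 32.7% and 33.8% of 32851 promoter windows of the same length. A half-site of the glucocorticoid receptor (AGAACA or TGTTCT), found in 16.1% of promoter windows, was in 0 of the 9 receptors' windows. The cAMP response element (TGACGTCA, 1.55% of windows) and the EGR1 motif (GCGTGGGCG or CGCCCACGC, 0.536%) were also in 0 of 9. These counts describe letters in short windows and say nothing of binding.

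The study's comparison asks how chronic restraint changes gene expression in this tissue. No Eph receptor passed the test. In edgeR's quasi-likelihood test, with p-values adjusted by Benjamini-Hochberg across 14739 genes, 0 of 9 had an adjusted p under 0.05, and the background was 0.00% (0 genes). Adjusted p was 0.997 for each of the 9. DESeq2 and limma-voom also called 0 of the 9, and over all genes DESeq2 called 2 and limma-voom 0. At an unadjusted p under 0.05 there were 2 of 9 receptors, Epha3 and Epha4, or 22.2%, beside 3.29% of all tested genes (1.30% higher and 1.99% lower under CRS). The CRS and Ctrl libraries did not overlap for the same 2 receptors, beside 8.28% of all tested genes (3.80% higher and 4.48% lower). Of the 9 log2 fold changes 5 were above 0 and 4 below, with a median of 0.16, beside a median of -0.00441 with 48.4% above 0 and 51.6% below over all tested genes. The receptors' median was 0.0344 without CRS 3 and 0.0061 without both Ctrl 1 and CRS 1.

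Epha4 had the smallest unadjusted p of the family. It was measured at 274, 282 and 255 CPM in CRS 1 to 3, against 301, 320.4 and 347 CPM in Ctrl 1 to 3. All CRS libraries lay below all Ctrl libraries, with CRS 2 and Ctrl 1 the nearest pair. The mean was 270.3 ± 13.8 CPM under CRS and 323 ± 22.9 CPM in Ctrl (SD, n = 3 each). The log2 fold change was -0.26 ± 0.07 (SE, 95% interval -0.43 to -0.09, unadjusted p = 0.00817 and adjusted p = 0.997, edgeR). Every one of 17 alternative settings gave a value between -0.31 and -0.20, and none of them gave an adjusted p under 0.05.

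Epha3 differed in the opposite direction. It was measured at 38.3, 29.2 and 44.5 CPM in CRS 1 to 3, against 25.2, 29.2 and 26.0 CPM in Ctrl 1 to 3. CRS 1 and CRS 3 stood well above all Ctrl libraries, while CRS 2 and Ctrl 2 were separated by less than counting error, with 290 and 301 counts and 29.21 and 29.19 CPM. The mean was 37.3 ± 7.69 CPM under CRS and 26.8 ± 2.10 CPM in Ctrl. The log2 fold change was 0.48 ± 0.15 (SE, 95% interval 0.13 to 0.83, unadjusted p = 0.0142 and adjusted p = 0.997, edgeR), or 1.39-fold. The value was 0.33 without CRS 3 and 0.63 without CRS 2. With the level of oligodendrocyte markers as a covariate it was 0.32 (unadjusted p = 0.127).

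**Figure D2:**
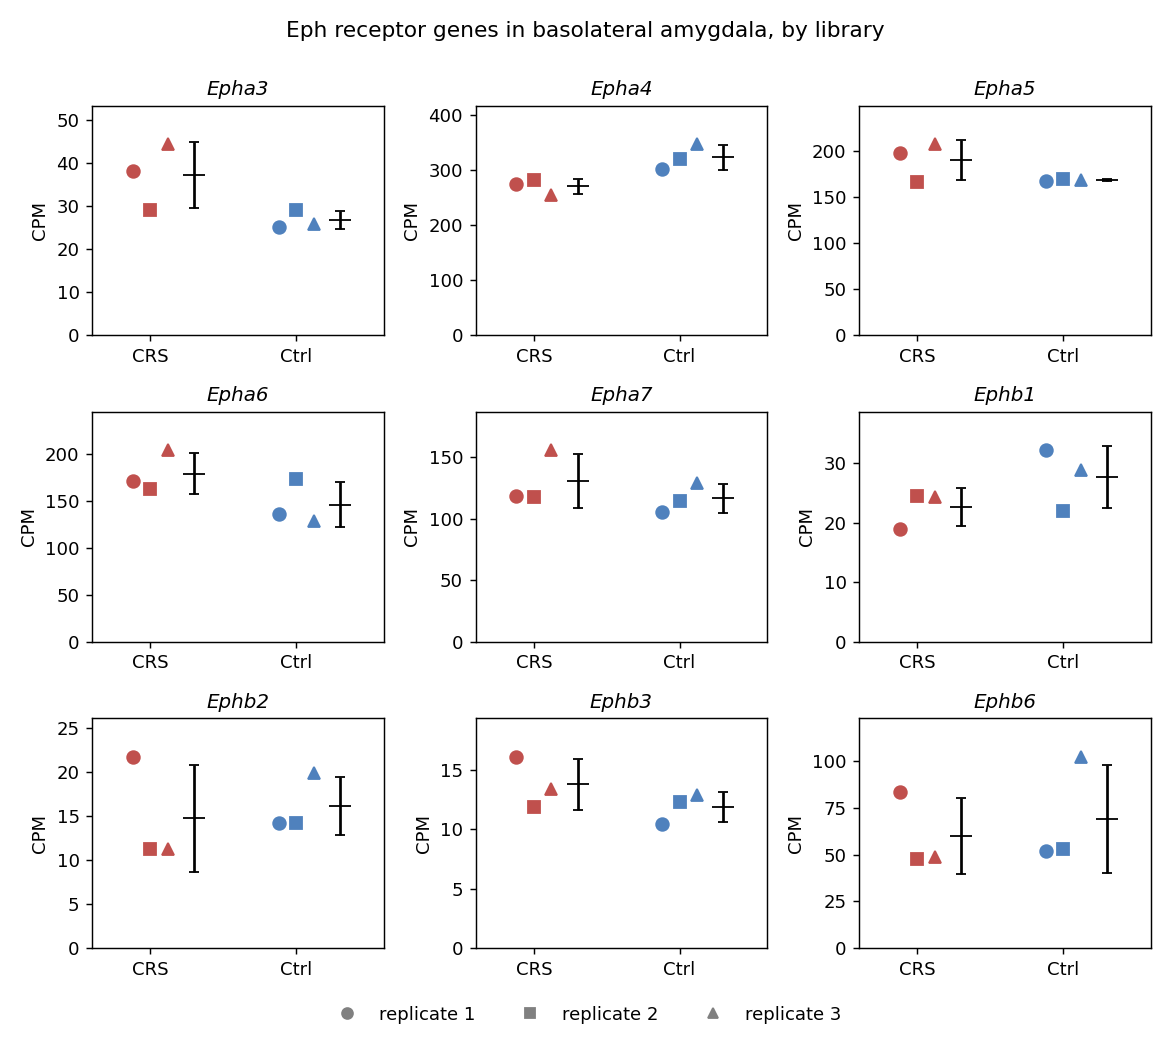
CPM (vertical axis of each panel, linear from 0) of the 9 Eph receptor genes in 3 CRS libraries (left, red) and 3 Ctrl libraries (right, blue), with marker shapes for replicate numbers and bars for mean and SD. Epha4 was lower in every CRS library than in every Ctrl library, Epha3 was higher by a margin that is nearly 0 between CRS 2 and Ctrl 2, and the other 7 overlapped.

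The other A-class receptors had means above Ctrl with overlapping groups. Epha6 was measured at 171, 163 and 204 CPM in CRS 1 to 3, against 136, 173 and 129 CPM in Ctrl 1 to 3. Ctrl 2 lay inside the CRS range, and the log2 fold change was 0.29 ± 0.13 (SE, 95% interval -0.02 to 0.61, unadjusted p = 0.0615 and adjusted p = 0.997, edgeR). It was 0.44 (unadjusted p = 0.0054) without Ctrl 2 and 0.19 (unadjusted p = 0.195) without CRS 3. Epha5 was measured at 198, 166 and 208 CPM in CRS 1 to 3, against 167, 169 and 169 CPM in Ctrl 1 to 3. The Ctrl libraries were nearly equal, with an SD of 0.982 CPM, while the SD under CRS was 21.5 CPM. CRS 1 and CRS 3 lay above all Ctrl libraries. CRS 2 lay below Ctrl 1 by less than counting error, with 1653 and 1685 counts. The log2 fold change of Epha5 was 0.18 ± 0.09 (95% interval -0.02 to 0.37, unadjusted p = 0.0717). It was 0.27 (unadjusted p = 0.00482) without CRS 2 and 0.11 (unadjusted p = 0.243) without CRS 3. With a marker level as a covariate it was 0.13 (striatal), 0.11 (choroid plexus) and 0.0993 (oligodendrocyte). The unadjusted p in these fits was 0.242, 0.178 and 0.369 (edgeR).

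Epha7 was measured at 118, 117 and 155 CPM in CRS 1 to 3, against 105, 115 and 129 CPM in Ctrl 1 to 3. Its log2 fold change of 0.16 ± 0.13 (95% interval -0.14 to 0.46) rested on CRS 3, without which it was 0.02. CRS 3 was the highest of the 6 libraries for 4 of the 5 A-class genes, Epha3, Epha5, Epha6 and Epha7, and the lowest for the fifth, Epha4. Summed over the A class, the level was 799, 758 and 867 CPM in CRS 1 to 3, against 736, 807 and 800.0 CPM in Ctrl 1 to 3. The summed levels overlapped, with individual receptors on either side. Summed over the B class, the level was 140.3, 95.4 and 97.9 CPM in CRS 1 to 3, against 109, 102 and 164 CPM in Ctrl 1 to 3.

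Among the B class, Ephb1 and Ephb3 differed in sign. Ephb1 was measured at 18.9, 24.5 and 24.4 CPM in CRS 1 to 3, against 32.2, 22.0 and 28.9 CPM in Ctrl 1 to 3. Its log2 fold change was -0.29 ± 0.16 (SE, 95% interval -0.67 to 0.08, unadjusted p = 0.110, adjusted p = 0.997, edgeR). CRS 1 was the lowest library and Ctrl 1 the highest. CRS 1 was also the lowest library for the mean of 13 striatal and central amygdala markers, at -2.87 log2 units from the Ctrl mean, and Ctrl 1 the highest, at 0.55. The other libraries lay between -0.53 and -0.18, so this level mostly sets CRS 1 apart. Here and below, a fit with it as a covariate is therefore not independent of a fit that leaves out CRS 1. With that marker level as a covariate the log2 fold change of Ephb1 was -0.05, and without Ctrl 1 and CRS 1 it was -0.06. Leaving out single libraries moved it both ways, to -0.43 (unadjusted p = 0.0198) without Ctrl 2, -0.18 without CRS 1 and -0.17 without Ctrl 1. Ephb1 shares 152 exon bases with Gm26846, a long noncoding RNA annotated on the opposite strand, and the sources used here do not give the strand setting of the counting.

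Ephb3, which acts with Ephb2 in forming forebrain commissures, was measured at 16.1, 11.9 and 13.4 CPM in CRS 1 to 3, against 10.4, 12.3 and 12.9 CPM in Ctrl 1 to 3. CRS 1 was highest and Ctrl 1 lowest, the reverse of Ephb1. The log2 fold change was 0.22 ± 0.15 (SE, 95% interval -0.12 to 0.56, unadjusted p = 0.182). It was 0.0061 without Ctrl 1 and CRS 1, and -0.00093 with the striatal marker level as a covariate.

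Ephb2 and Ephb6 varied between libraries of the same group more than between groups. Ephb2 was measured at 21.8, 11.3 and 11.2 CPM in CRS 1 to 3, against 14.2, 14.3 and 19.9 CPM in Ctrl 1 to 3. Ephb6 was measured at 83.5, 47.7 and 48.9 CPM in CRS 1 to 3, against 52.1, 53.1 and 103 CPM in Ctrl 1 to 3. For both genes CRS 1 and Ctrl 3 stood above the other 4 libraries. The log2 fold changes were -0.13 ± 0.29 for Ephb2 (SE, 95% interval -0.84 to 0.58, unadjusted p = 0.677) and -0.21 ± 0.37 for Ephb6 (95% interval -1.13 to 0.72, unadjusted p = 0.600). These intervals are the widest of the 9. Each sign depended on single libraries: Ephb2 was at 0.03 without CRS 2, 0.03 without CRS 3 and 0.05 without Ctrl 3, and Ephb6 was at 0.19 without Ctrl 3.

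The same 2 libraries led the markers of glutamatergic amygdala neurons. The mean log2 level of these 8 markers, relative to the Ctrl mean, was 0.55, -0.01 and -0.05 in CRS 1 to 3, and -0.35, -0.08 and 0.44 in Ctrl 1 to 3. Without CRS 1 the log2 fold change of Ephb2 was -0.52 (unadjusted p = 0.0192), and with the striatal marker level as a covariate it was -0.68 (unadjusted p = 0.00819). Ephb6 was at -0.69 in that fit (unadjusted p = 0.137). None of these passed adjustment over all genes. The part of tissue content in the pattern of these receptors was not tested beyond the fits with a marker level as covariate.

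**Figure D3:**
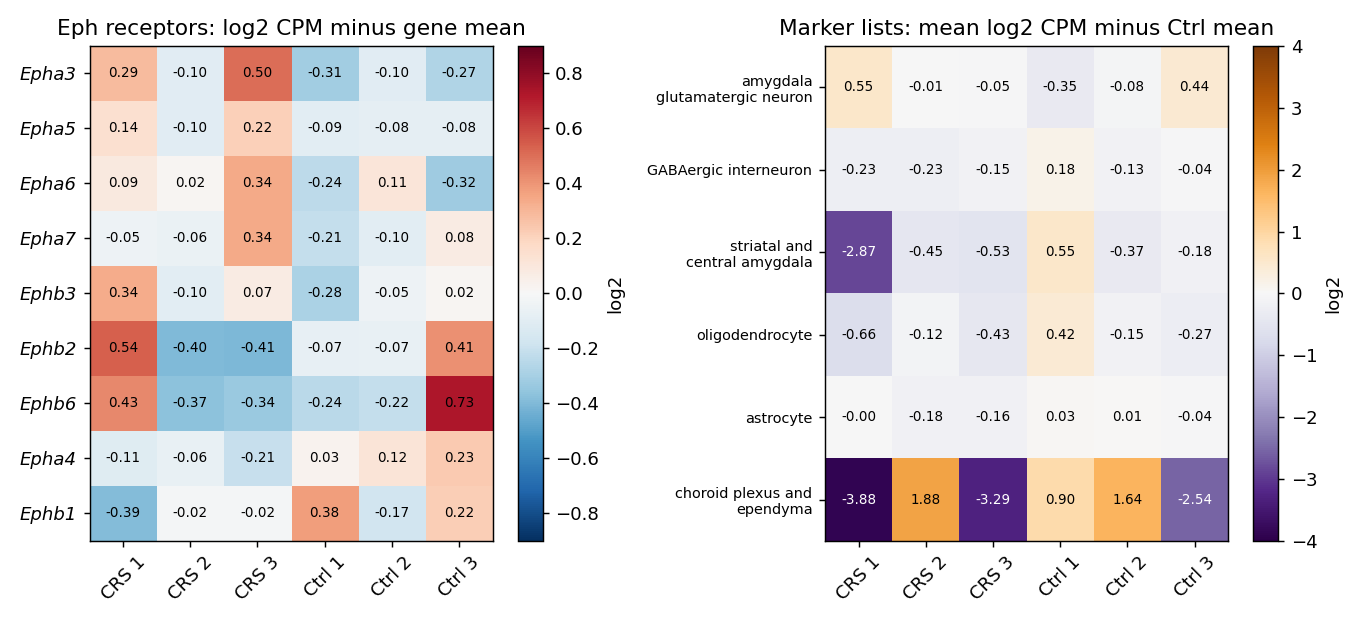
Left, log2 CPM of each Eph receptor minus its mean over the 6 libraries. Right, mean log2 CPM of 6 marker lists minus the Ctrl mean. Columns are CRS 1 to 3 and then Ctrl 1 to 3. Ephb2 and Ephb6 are highest in CRS 1 and Ctrl 3, where the glutamatergic markers stand at 0.55 and 0.44, and striatal markers are lowest in CRS 1 at -2.87.

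Ephb6 had the largest SD of log2 CPM over the 6 libraries of all 9 receptors, at 0.46, with Ephb2 next at 0.40 and Epha5 lowest at 0.14. The genes most like it, by root mean square difference of mean-centred log2 CPM over 6 libraries, were sought among 14620 genes with a mean of at least 1 CPM. They were Cd34, a surface sialomucin (0.0851), Hs3st2, a heparan sulfate sulfotransferase (0.11), Gfra2, the neurturin receptor (0.12), Npbwr1, a neuropeptide B and W receptor (0.13), and Ptafr, the platelet-activating factor receptor (0.13). Cd34 was at 36.1, 19.7 and 22.7 CPM in CRS 1 to 3, against 21.5, 20.8 and 40.5 CPM in Ctrl 1 to 3. Among the receptors themselves, the closest pairs were Epha5 with Epha7 at 0.13 and Epha5 with Ephb3 at 0.13, and Ephb2 was closest to Ephb6, at 0.17. Flat profiles lie close to each other under this measure.

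The other Eph receptors were mostly scarce. Of 5 genes, Epha1 was too low to test, with 0 to 13 counts per library. Of the 4 tested, 0 had an adjusted p under 0.05 and the median log2 fold change was -0.31, or -0.17 without Ctrl 3. Epha10, a receptor with an inactive kinase domain, was measured at 48.2, 46.1 and 59.4 CPM in CRS 1 to 3, against 38.0, 44.3 and 40.5 CPM in Ctrl 1 to 3. The groups did not overlap, and the log2 fold change was 0.32 ± 0.11 (SE, 95% interval 0.07 to 0.58, unadjusted p = 0.0203, adjusted p = 0.997, edgeR). Without CRS 3 it was 0.20 (unadjusted p = 0.0665). Among the 4 genes, 1 was higher and 0 lower without overlap, beside 3.80% and 4.48% of all tested genes. At an unadjusted p under 0.05 (edgeR) there was 1 of the 4, beside 3.29% of all tested genes. Epha8 had 5.25 ± 0.0158 CPM under CRS and 7.65 ± 3.48 CPM in Ctrl, with a log2 fold change of -0.54 ± 0.34. It was -0.85 (unadjusted p = 0.00245) without Ctrl 2 and -0.22 without Ctrl 3. Epha2, known from epithelium, was at -0.41 ± 0.37, and Ephb4, the receptor of venous endothelium, at -0.20 ± 0.23. With 1 library left out, Epha2 ranged from -0.70 (without CRS 3) to -0.17 (without CRS 2), and Ephb4 from -0.40 (without CRS 2) to -0.0058 (without CRS 3).

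The ephrin ligands showed 4 of 7 tested genes above 0 and 3 below, a median log2 fold change of 0.19 and 0 with an adjusted p under 0.05. That median was 0.0030 without CRS 1, 0.0473 without Ctrl 2, -0.0010 without Ctrl 1 and CRS 1, and -0.0668 with the striatal marker level as a covariate. Efna4, at 1 to 5 counts per library, was not tested. Efnb2, the transmembrane ligand known from arteries and from synapses, was measured at 68.8, 52.4 and 57.1 CPM in CRS 1 to 3, against 47.4, 46.3 and 46.6 CPM in Ctrl 1 to 3. Every CRS library lay above every Ctrl library. The log2 fold change was 0.35 ± 0.10 (SE, 95% interval 0.11 to 0.58, unadjusted p = 0.00989, adjusted p = 0.997, edgeR), and it was 0.18 with the striatal marker level as a covariate. Among the 7 tested ligands, 1 was higher and 0 lower without overlap, beside 3.80% and 4.48% of all tested genes. At an unadjusted p under 0.05 (edgeR) there was 1 of the 7, beside 3.29% of all tested genes.

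Per kb of annotated exon the most abundant ligand was Efnb3, a B-class ephrin of neurons, at 25.8 ± 2.14 CPM per kb under CRS and 28.4 ± 7.25 CPM per kb in Ctrl. Efna3, which in the hippocampus is carried by astrocytes and binds neuronal Epha4, followed at 18.1 ± 1.22 CPM per kb under CRS and 18.3 ± 0.928 CPM per kb in Ctrl. Its log2 fold change was -0.01 ± 0.08 (95% interval -0.20 to 0.18), the narrowest interval among the ligands. It shares 344 exon bases with an annotated antisense RNA, Gm15998. The remaining log2 fold changes were 0.23 ± 0.12 for Efnb1, 0.26 ± 0.36 for Efna1, 0.19 ± 0.20 for Efna2, -0.19 ± 0.26 for Efna5 and -0.14 ± 0.19 for Efnb3, and each 95% interval included 0.

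**Figure D4:**
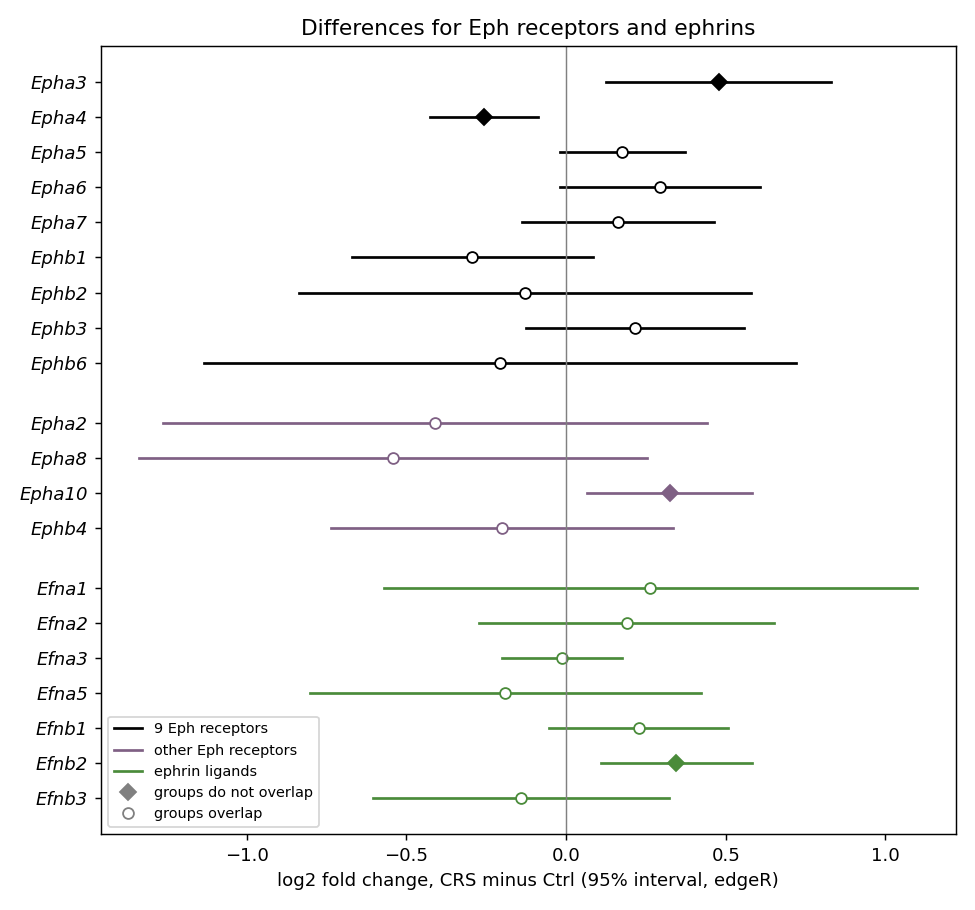
Log2 fold change (horizontal axis, CRS minus Ctrl) with its 95% interval from edgeR for 9 Eph receptors, 4 other Eph receptors and 7 ephrins. Filled diamonds mark genes whose CRS and Ctrl libraries do not overlap (Epha3, Epha4, Epha10 and Efnb2), and only for these does the interval leave out 0. Of all tested genes, 8.28% did not overlap and 3.29% had an unadjusted p under 0.05 (edgeR).

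Downstream of the receptors, 25 genes of forward signalling were tested, of which 11 had a log2 fold change above 0 and 14 below (median -0.01), and 0 had an adjusted p under 0.05. Those with the smallest unadjusted p were Arhgef15, Kalrn and Ngef. Arhgef15, the RhoA exchange factor ephexin-5 that restrains synapse formation until EphB signalling removes it, was measured at 8.83, 10.98 and 11.5 CPM in CRS 1 to 3, against 14.0, 13.4 and 12.8 CPM in Ctrl 1 to 3. The groups did not overlap, at a log2 fold change of -0.36 ± 0.13 (SE, unadjusted p = 0.0269, adjusted p = 0.997, edgeR). It was -0.19 (unadjusted p = 0.240) with the striatal marker level as a covariate, -0.24 (unadjusted p = 0.178) with the oligodendrocyte level, and -0.22 (unadjusted p = 0.193) without Ctrl 1 and CRS 1. Kalrn, the exchange factor kalirin through which EphB acts on spines, was at 0.20 ± 0.13, and Ngef, the ephexin-1 that links Epha4 to RhoA, at -0.23 ± 0.15. The groups also did not overlap for Rasa1, a Ras GTPase-activating protein named after its values were seen, at 0.07 (unadjusted p = 0.237). Among the 25 genes, 1 was higher and 1 lower without overlap, beside 3.80% and 4.48% of all tested genes. At an unadjusted p under 0.05 (edgeR) there was 1 of the 25, beside 3.29% of all tested genes. With the striatal marker level as a covariate Kalrn was at 0.0278 and Ngef at -0.0141.

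Of 8 genes of reverse signalling and cleavage, 2 were above 0 and 6 below (median -0.04), and 0 had an adjusted p under 0.05. Grip2, a scaffold that binds the tail of ephrin-B, was measured at 15.7, 19.4 and 18.9 CPM in CRS 1 to 3, against 23.1, 20.5 and 23.4 CPM in Ctrl 1 to 3. Its groups did not overlap, with a log2 fold change of -0.31 ± 0.11 (SE, unadjusted p = 0.0256, adjusted p = 0.997, edgeR). It was -0.16 (unadjusted p = 0.227) with the striatal marker level as a covariate and -0.19 (unadjusted p = 0.185) without Ctrl 1 and CRS 1. Ptpn13, a phosphatase that acts on ephrin-B, was at -0.15 ± 0.09 with groups that also did not overlap, and Sdcbp, the scaffold syntenin, at -0.09 ± 0.10. Among the 8 genes, 2 were lower and 0 higher without overlap, beside 4.48% and 3.80% of all tested genes. At an unadjusted p under 0.05 (edgeR) there was 1 of the 8, beside 3.29% of all tested genes.

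The direction of 6 receptors held in all 17 alternative settings: Epha3, Epha5, Epha6 and Epha7 above 0, and Epha4 and Ephb1 below 0. Ephb2, Ephb3 and Ephb6 each changed sign in at least 1 setting. The settings overlap in libraries, so this count is a description.

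**Figure D5:**
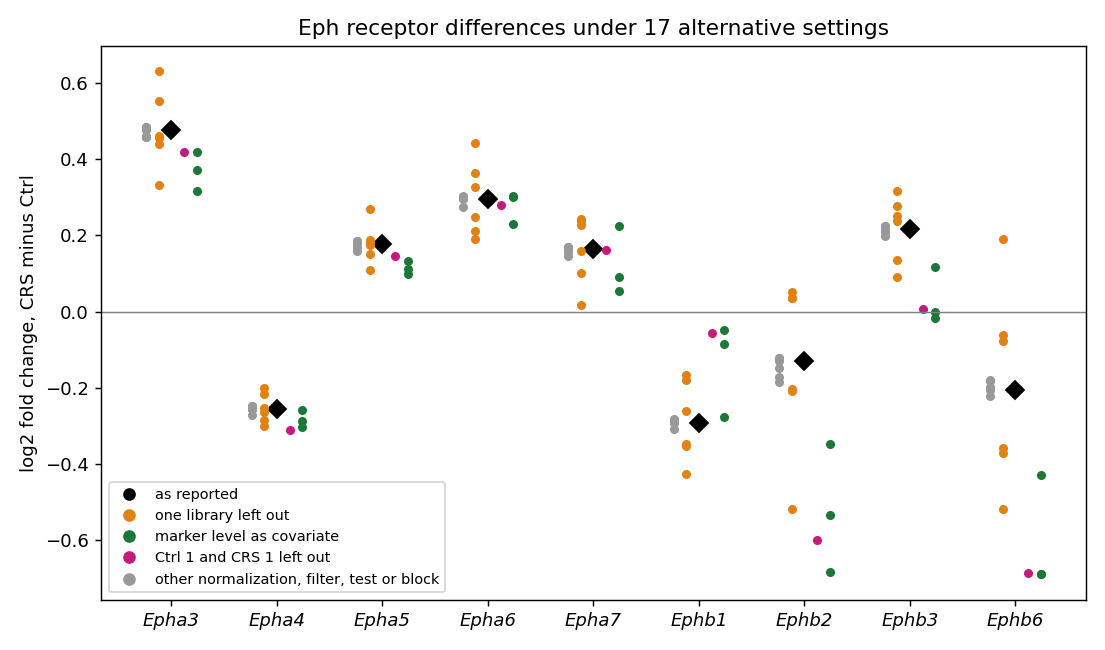
Log2 fold change of each Eph receptor (vertical axis, CRS minus Ctrl) as reported (black diamond) and under 17 alternative settings, coloured by kind. Epha4 stays between -0.31 and -0.20, while Ephb2 runs from -0.68 to 0.05 and Ephb6 from -0.69 to 0.19.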

How the data were processed

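Basolateral amygdala RNA was measured in 3 CRS and 3 Ctrl libraries. The deposited values are whole-number read counts for each gene symbol, not normalized, in a separate file for each library. The build mm39 and the tools STAR 2.7.7a, edgeR 3.42.4, HTSeq 0.13.5 and FastQC 0.12.1 are named, without roles, per the submitters' processing notes. The sources used here do not give the gene annotation or strand setting. Rows that name no gene were left out of library sizes. Of these, reads overlapping no annotated feature held 53.0 to 57.4% of the counts in genes and in the no-feature, ambiguous and not uniquely aligned rows together. Every pair of libraries differed by more than counting noise (chi-square per gene at least 2.96). By this value each CRS library was nearest to a Ctrl library: CRS 1 to Ctrl 3 (8.22), CRS 2 to Ctrl 2 (2.96) and CRS 3 to Ctrl 3 (5.50). Pairs of CRS libraries lay at 11.4 to 17.4. Only Ctrl 1 was nearest to a library of its own group, Ctrl 2 (4.67).

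Counts were analysed here in R 4.3.3 with edgeR 4.0.16: filterByExpr (minimum count 10, minimum total 15; 14739 genes kept), TMM, and the robust quasi-likelihood F test, adjusted over all tested genes, threshold 0.05. Each SE was derived from the fold change and its F statistic. Alternatives used DESeq2 1.42.0 and limma 3.58.1. CPM use TMM-scaled library sizes, and log2 CPM a prior count of 2. Per-kb levels use GENCODE M21 exon lengths, and upstream sequences are from RefSeq (GRCm38.p6). Named genes were the 9 receptors, all tested ephrins and other Eph receptors, the 3 smallest p of each signalling list, and the 5 genes most like the most variable receptor. The receptors and gene lists were chosen with earlier results of these data known. The procedure was tested on simulated counts. Replicates are biological, per the series' design text.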

Additional observations from a re-analysis of the deposited data

How the results depend on the processing

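The count of Eph receptors past the threshold was 0 in each of 17 alternatives, as was that of signalling genes. Over all genes DESeq2 called 2 genes, and with 1 library left out the count ranged from 0 to 1, the 1 being without Ctrl 3. The fit with the replicate number as a block called 0 genes. The numbers were not taken as pairs: deviations from the group mean correlated at -0.32, 0.53 and 0.28 for the same-numbered pairs, and CRS 1 correlated best with Ctrl 3 (0.48).

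Values changed sign as follows, and the cause was not tested. With 1 library left out, the log2 fold change ranged from -0.52 to 0.0507 for Ephb2, from -0.52 to 0.19 for Ephb6, from -0.0519 to 0.0459 for Efna3 and from -0.391 to 0.167 for Efna5. Without Ctrl 1 and CRS 1, Efna1 was at -0.0010. With the striatal level as a covariate, Ephb3 was at -0.00093, Efna1 at -0.0795 and Sdcbp at 0.0139. With the choroid plexus level, Efna1 was at -0.0071 and Efnb3 at 0.0265. With the oligodendrocyte level, Ephb3 was at -0.0162, Efna1 at -0.0379, Efnb3 at 0.0794 and Kalrn at -0.0060.

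At an unadjusted p under 0.05 there were 1 to 4 of the 9 receptors with 1 library left out, against 2 with all libraries. It was 1 without Ctrl 1, where 1.52% of all tested genes passed, 4 without CRS 2, where 6.44% passed, and 4 without Ctrl 2, where 3.13% passed, beside 3.29% with all libraries. The median of the 9 was -0.00093 with the striatal and -0.02 with the oligodendrocyte covariate. With 3 libraries a group, the widest intervals, those of Ephb2 and Ephb6, limit what can be said of the B class.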
